A study of Mus musculus with 18 samples.

Results

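A single-library region is a stretch of autosome where exactly 1 of 18 mouse heart libraries had a peak of methylated DNA and the other 17 had none. All deposited peaks were joined wherever they shared at least 1 base, and the joined regions were kept when 1 library alone contributed. This gave 43229 single-library regions among 148111 autosomal regions (29.2%). They covered 35.0 Mb of the 178.6 Mb under any peak, and each held 1 peak of its library. The regions were thus chosen by the peak calls themselves, so the number of regions and the contrast of their scores and widths with those of shared peaks are given as description, without a test. The choice treats every library alike and uses no group label, so counts per library were compared between groups.

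The study used 18 male C57BL/6JR mice aged 12 weeks, 3 in each of 6 groups. In the MI groups the left anterior descending coronary artery was tied to produce a myocardial infarction, and hearts were taken 72 h, 24 h, 6 h, 1 h or 10 min later. The sham group (labelled control, 0 h) had the operation with the suture passed but not tied. Every group received sodium pentobarbital before surgery and isoflurane at the end. The labels give myocardial tissue as the source and Cardiomyocytes as the cell type, without describing a cell isolation. A tied artery also leaves muscle outside its territory supplied, and the labels do not say which part of the ventricle was sampled. Peak lists hold no expression of marker genes, so the labelled cell type could not be checked.

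Cytosine methylation in mammals sits mainly at CpG dinucleotides, where it is placed and copied by DNA methyltransferases and removed stepwise by TET enzymes. Most CpGs in gene bodies and between genes are methylated, whereas dense clusters of CpGs at promoters, called CpG islands, are usually free of it. In methylated DNA immunoprecipitation sequencing (MeDIP-seq) an antibody against 5-methylcytosine pulls down sheared DNA, and a peak marks a pile of such fragments. A peak does not give the percentage of methylated molecules, and its absence from a list does not show that the site was unmethylated. Each deposited peak carries a score from the authors' peak caller, whose scale is not stated. The lowest score was 50, and it was used only to rank and filter peaks. Sequencing depth is unknown from the lists.

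Promoters under a single-library peak are shown first, because the CpGs of a promoter can be read directly in its sequence. The printed bases are promoter sequence and not the sequence of the whole peak. The sequences are the 250 bases before the start of 4 genes, from RefSeq on GRCm38.p6, written 5′ to 3′ on the strand of the gene with each CpG in capitals. Cd55b (a complement-regulating surface protein) and Tbc1d5 (a regulator of endosomal traffic) are among the promoters with the highest-scoring single-library peaks. Krt7 (a keratin of simple epithelia) is among them too and has more CpGs. Mael (a germline gene of transposon silencing) is among the most CpG-rich promoters found. The printed stretches lie at chr1:130423044-130423293 for Cd55b (minus strand), chr17:51159379-51159628 for Tbc1d5 (minus strand), chr15:101412153-101412402 for Krt7 (plus strand) and chr1:166238745-166238994 for Mael (minus strand).
Cd55b: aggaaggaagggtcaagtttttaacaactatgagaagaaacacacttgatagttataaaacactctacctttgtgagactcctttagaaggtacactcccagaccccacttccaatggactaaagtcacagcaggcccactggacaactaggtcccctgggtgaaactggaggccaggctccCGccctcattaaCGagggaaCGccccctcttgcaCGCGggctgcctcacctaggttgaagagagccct
Tbc1d5: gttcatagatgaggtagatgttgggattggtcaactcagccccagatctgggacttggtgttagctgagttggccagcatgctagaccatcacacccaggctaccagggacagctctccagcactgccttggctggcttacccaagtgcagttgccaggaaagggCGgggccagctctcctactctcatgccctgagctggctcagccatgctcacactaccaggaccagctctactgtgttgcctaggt
Krt7: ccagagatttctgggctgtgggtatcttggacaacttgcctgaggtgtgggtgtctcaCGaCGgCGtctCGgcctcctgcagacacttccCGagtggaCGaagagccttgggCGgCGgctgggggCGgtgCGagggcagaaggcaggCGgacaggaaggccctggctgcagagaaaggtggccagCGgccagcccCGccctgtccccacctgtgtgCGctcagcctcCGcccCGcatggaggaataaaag
Mael: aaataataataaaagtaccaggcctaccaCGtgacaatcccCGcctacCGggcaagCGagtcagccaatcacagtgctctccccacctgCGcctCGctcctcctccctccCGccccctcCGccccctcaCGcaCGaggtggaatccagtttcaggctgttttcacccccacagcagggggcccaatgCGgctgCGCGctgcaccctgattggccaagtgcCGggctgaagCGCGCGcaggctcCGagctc

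The printed 250 bases hold 5 CpGs at Cd55b, 1 at Tbc1d5, 16 at Krt7 and 18 at Mael. The peak at Cd55b scored 118.61 in 72 h replicate 1, was 920 bases wide and covered all 250 printed bases. That at Tbc1d5 scored 92.82 in 72 h replicate 3 and covered 214 of them, and that at Krt7 scored 95.7 in 72 h replicate 1 and covered 129. The peak at Mael scored 67.44 in 72 h replicate 1 and covered all 250. In each case the other 17 libraries had no overlapping peak.

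MicroRNA genes give a second set of sequences, since a few genes with known roles in the heart lay under single-library regions. The mature forms are shown with the seed, bases 2 to 8, in capitals, because the seed guides target recognition. miR-29a-3p and miR-29b-3p repress collagens and other matrix genes and share the same seed here. miR-34a-5p acts in the p53 pathway, and miR-199a-5p is expressed in heart muscle.
miR-29a-3p: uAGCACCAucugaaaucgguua
miR-29b-3p: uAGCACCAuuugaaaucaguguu
miR-34a-5p: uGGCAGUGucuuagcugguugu
miR-199a-5p: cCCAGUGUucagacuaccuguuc

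Mir29a and Mir29b-1 are neighbours, and 1 peak of 72 h replicate 2 covered both hairpins (chr6:31062655-31063589, score 75.33). Mir34a lay under a wide peak of sham replicate 2 (chr4:150066129-150069305, score 60.38). Mir199a-1 lay under a peak of 72 h replicate 2 close to the lowest score (chr9:21496491-21497048, score 50.72). Of 919 autosomal miRNA hairpins in the table, 164 overlapped a peak of any library and 26 overlapped a single-library region. Since neighbouring hairpins can share a peak, the 26 hairpins lay in 23 regions. The 72 h libraries supplied 10 of the 23 (43.5%), and they supplied 25.8% of all single-library regions; this difference was not tested.

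Single-library peaks were weak. Their median score was 58.35, with a range from 50, the lowest score in the lists, to 184.43, and 56.6% scored under 60. Peaks in regions shared by exactly 2 libraries, just outside the choice, had a median of 59.68, and peaks in regions found in all 18 libraries had 119.62. The median over all 838609 autosomal peaks was 72.07. With the sex chromosomes the median of the 18 lists was 72.11, and 15.3% of single-library peaks reached that value. The medians rose at each step from 1 to 18 libraries.

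They were also narrow. The median width was 776 bases, with a range of 327 to 5900, against 806 bases for peaks in 2-library regions and 1279 bases for peaks in 18-library regions. The plot of score and width by number of libraries shows both medians rising from left to right, with the steepest step at the right end.

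**Figure D1:**
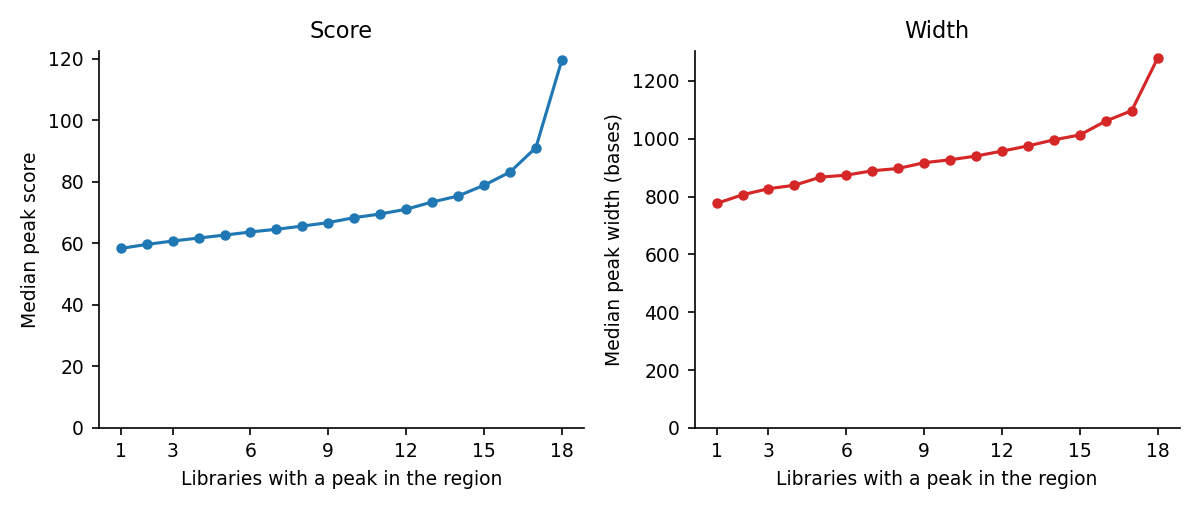
Median peak score (left) and median peak width in bases (right) against the number of libraries with a peak in the region, over all autosomal peaks. Single-library peaks, at the left end, have the lowest values of both, 58.35 and 776 bases, and the 18-library peaks reach 119.62 and 1279 bases.

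Score and width went in opposite directions within the single-library peaks. Their median width was 817 bases at scores from 50 to under 60, 739.5 from 60, 662 from 70, 582 from 80 and 516 bases at 100 or more. Shared peaks of the same score ranges widened instead, from 919 bases in the lowest range to 1141 bases in the highest. The 575 single-library peaks at 100 or more were thus among the shortest, and the shared peaks of such scores were among the widest. The same bins show how seldom a strong peak was alone. Single-library peaks made up 10.9% of all peaks in the lowest range, 6.52%, 3.79% and 1.93% in the next ones, and 0.316% at 100 or more.

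**Figure D2:**
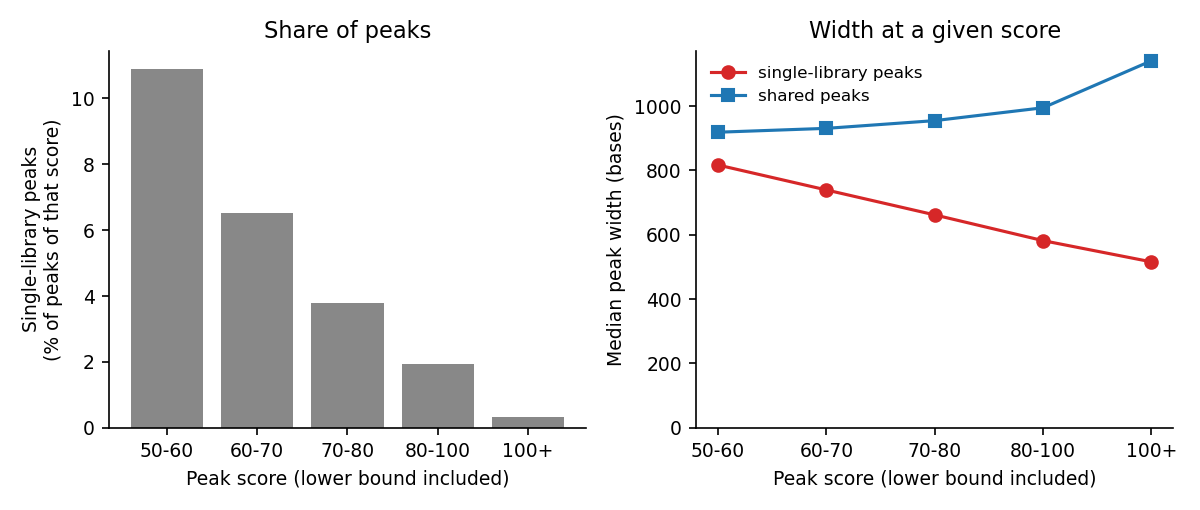
Share of peaks in each score range that are single-library (left, percent of all autosomal peaks of that score) and median width in bases of single-library and shared peaks of the same range (right). The share falls from 10.9% to 0.316%, and the 2 width lines move apart, from 817 and 919 bases to 516 and 1141 bases.

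The spacing of single-library regions is given as description, since no matching distance was computed for other regions. The distance to the nearest region with a peak of another library had a median of 4145 bases. It was at most 500 bases for 8.20% and at most 1000 bases for 15.8% of the regions, and at most 10000 bases for 79.9%. The most isolated region was 279045 bases from the next one.

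The number of single-library regions differed several-fold between libraries. Sham replicates 1 to 3 had 2433, 3651 and 2153. The 10 min libraries had 2676, 1559 and 1764, and the 1 h libraries 1735, 1414 and 2114. The lowest library was in the 6 h group, which had 1922, 2575 and 1152, followed by 1940, 2418 and 2552 at 24 h. The 72 h libraries had 4387, 3843 and 2941, so 2 of them were above every other library and the third was below sham replicate 2 alone among the libraries of other groups. Together the 72 h mice supplied 11171 regions (25.8%), sham 8237, 24 h 6910, 10 min 5999, 6 h 5649 and 1 h 5263.

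As a share of the autosomal peaks of a library, single-library peaks were 5.06%, 6.25% and 4.99% in sham. The 10 min libraries had 5.25%, 4.33% and 4.12%, the 1 h libraries 4.01%, 3.36% and 4.77%, and the 6 h libraries 4.59%, 5.25% and 3.45%. At 24 h the shares were 4.23%, 4.87% and 5.54%, and at 72 h they were 7.65%, 6.51% and 6.23%. Sham libraries averaged 5.43% ± 0.706 and 72 h libraries 6.80% ± 0.753 (SD, n = 3 each). The other averages were 4.57% ± 0.603 (10 min), 4.05% ± 0.709 (1 h), 4.43% ± 0.907 (6 h) and 4.88% ± 0.653 (24 h). The 1 h range lay entirely below sham, and the 72 h range overlapped sham only through sham replicate 2.

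The share of variance that lay between the 6 groups was 0.696 for this percentage (permutation test with 100000 relabelings, p = 0.00673, adjusted p = 0.0272 over 5 measures). For the number of regions the value was 0.644 (permutation p = 0.0177, adjusted p = 0.0295). The call was lost with lists of equal length. When every library was reduced to its 33354 top-scoring peaks, the length of the shortest autosomal list, the groups held 0.149 of the variance in either measure (permutation p = 0.822, adjusted p = 0.822). Sham libraries then averaged 5.35% ± 1.13 and 72 h libraries 6.02% ± 1.08 (SD, n = 3 each). The other averages were 6.20% ± 1.01 (10 min), 5.57% ± 0.567 (1 h), 6.13% ± 0.804 (6 h) and 5.76% ± 0.667 (24 h), and the range of every MI group overlapped that of sham. Shortening the other lists also changed the library whose own list was not shortened, 6 h replicate 3, from 1152 single-library regions (3.45%) to 2290 (6.87%). Why the call was lost was not tested.

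Single libraries decided the call as well. It was lost for both measures without 72 h replicate 1 (adjusted permutation p = 0.176 for the number and 0.150 for the share) and without 72 h replicate 2 (0.111 and 0.0762). It was also lost, by less, without 10 min replicate 3 (0.0517 for both), 1 h replicate 1 (0.0633 and 0.0552) or 1 h replicate 2 (0.0575 and 0.0554).

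**Figure D3:**
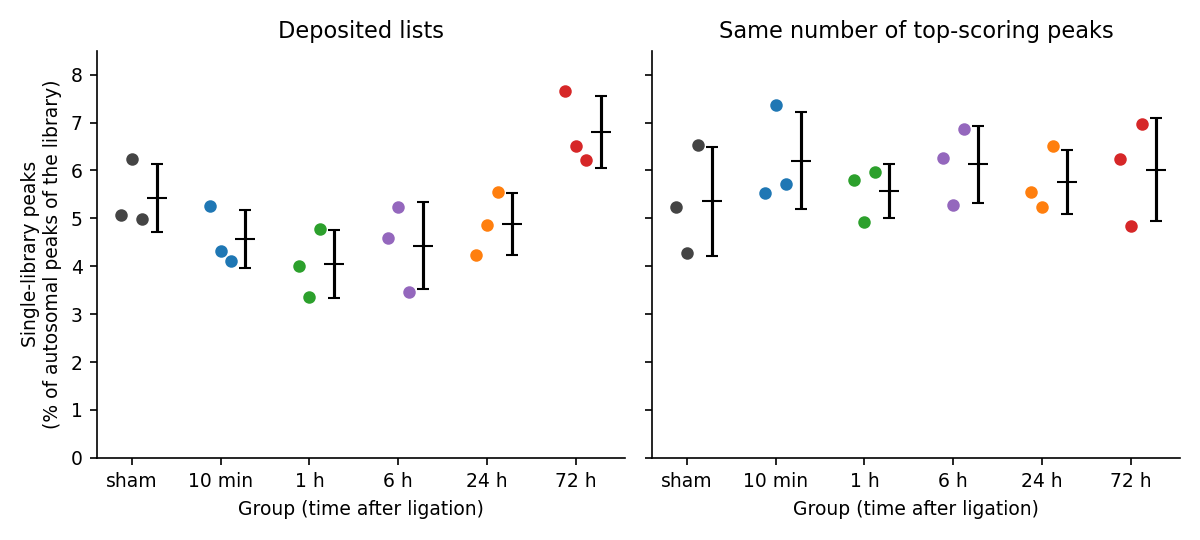
Single-library peaks as a percentage of the autosomal peaks of each library, by group, in the deposited lists (left) and with 33354 top-scoring peaks from each library (right). Points are libraries, and the black marks are the mean ± SD of 3. On the left the 72 h points lie between 6.23% and 7.65%, and on the right the groups overlap.

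No single time passed the threshold against sham, which 3 against 3 libraries cannot reach. The mean difference in percentage points was -0.866 for 10 min (two-sided exact permutation p = 0.3), -1.39 for the 1 h mice (exact permutation p = 0.1), -1.001 for the 6 h mice (p = 0.3) and -0.550 for the 24 h mice (p = 0.4). For 72 h it was 1.37 (exact permutation p = 0.2), with 3 of 3 libraries above the sham mean. The smallest p this design allows is 0.1, and the adjusted values ran from 0.375 to 0.4. With equal numbers of peaks the sign turned at 4 times, to 0.850 (10 min), 0.215 (1 h), 0.782 (6 h) and 0.412 (24 h).

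Libraries with more shared peaks also had more single-library regions. Over the 18 libraries Pearson's r was 0.907 and Spearman's rho 0.899. Both counts are parts of the same list and grow with its length, so the relation is a description and no test is given. Without the 2 libraries farthest from the median, 6 h replicate 3 and 72 h replicate 2, r was 0.874 and rho 0.862. No relation was computed within a group, since 3 libraries are too few. In the plot of single-library regions against shared peaks, the 72 h points lie at or above those of other groups at like list length, with 72 h replicate 1 the highest.

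**Figure D4:**
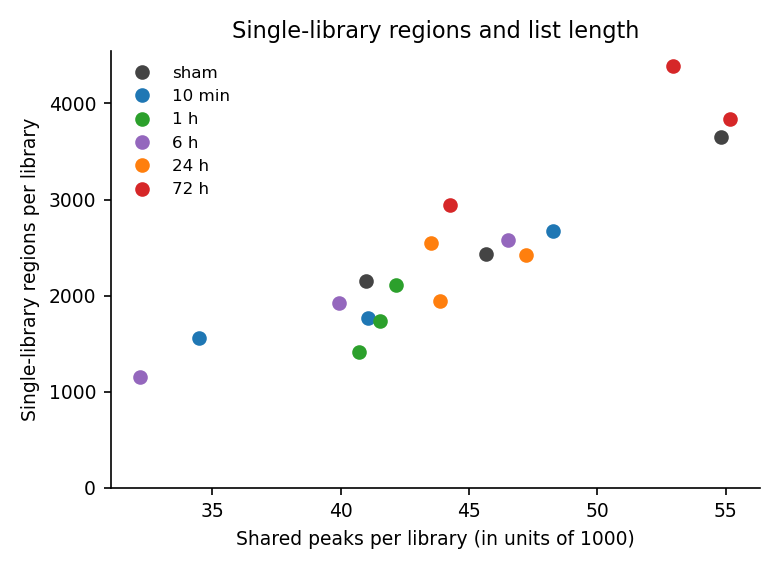
Number of single-library regions against the number of shared peaks (in units of 1000) for each of the 18 libraries, coloured by group. The points rise together (r = 0.907), from 1152 regions in 6 h replicate 3 to 4387 in 72 h replicate 1.

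The scores of single-library peaks showed the same group. The median score per library was 58.13 to 58.5 in sham. It ran from 57.42 to 58.505 (10 min), 57.81 to 58.24 (1 h), 57.625 to 58.21 (6 h) and 57.95 to 58.88 (24 h). At 72 h the medians were 60.06, 59 and 59, above every other library. The share of variance between groups was 0.657 (permutation p = 0.0109, adjusted p = 0.0272), and 0.502 with equal numbers of peaks (adjusted permutation p = 0.245). The same 5 libraries as for the share decided this call, with an adjusted permutation p of 0.176 without 72 h replicate 1, 0.0762 without 72 h replicate 2, and 0.0517 to 0.0554 without any 1 of the others. The 72 h libraries held 204 of the 575 peaks at 100 or more (35.5%), of which 105 came from 72 h replicate 1, 59 from replicate 2 and 40 from replicate 3. Other libraries had 14 to 37 such peaks. Shared peaks also had their highest mean of library medians at 72 h, 75.96, with libraries from 72.37 to 78.25. That mean was 74.18 in sham and ran from 71.54 (6 h) to 72.88 (1 h) at the other times.

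No difference in width between the groups passed the test. The median width per library ran from 687 bases (72 h replicate 1) to 945 bases (10 min replicate 2), and the share of variance between groups was 0.357 (permutation p = 0.306, adjusted p = 0.306). In every library the single-library peaks had a lower median width than the shared ones, whose medians ran from 837 bases (72 h replicate 1) to 1148 bases (10 min replicate 2).

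The gene context of the single-library regions was close to that of the peaks at large. Of the 43229 regions, 51.3% overlapped a protein-coding gene, 7.92% a long noncoding RNA gene only, 1.48% another kind of gene and 39.3% no gene. Over all 148111 regions 50.5% overlapped a protein-coding gene and 39.6% no gene, and regions in 2 libraries had 38.7% outside genes. Regions in all 18 libraries differed in level, with 35.2% in protein-coding genes and 53.3% outside genes. Exons and introns were not analysed here.

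Counted once per region, 60.7% of single-library and 60.3% of shared regions overlapped a gene. Within libraries, where a widely shared region counts in each library that has it, the difference was larger. The mean over libraries was 60.0% ± 3.18 against 58.3% ± 0.966 (SD, n = 18 each), a difference of 1.66 points, higher in 13 of 18 libraries and lower in 5 (two-sided exact sign-flip permutation test, p = 0.00711). Using the midpoint of each peak gave 2.77 points, higher in 16 of 18, and protein-coding genes alone gave 3.00 points. When peaks below the median score were dropped and the rest merged anew, the difference was 5.44 points, higher in 18 of 18. That set also takes in regions where the peaks of other libraries were weaker. Among the original single-library regions, 61.7% overlapped a gene at scores from 50 to under 60, and 57.9% at 100 or more. The shared regions of different libraries are largely the same, so the 18 differences are not fully independent. The difference is against all shared regions together: 61.3% of 2-library regions overlapped a gene, and the 18-library regions, at 46.7%, were the lowest class. Single-library regions overlapped a gene in 53.7% (10 min replicate 2) to 68.0% (72 h replicate 1) of cases, with 0.446 of the variance between groups (permutation p = 0.157, adjusted p = 0.196).

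**Figure D5:**
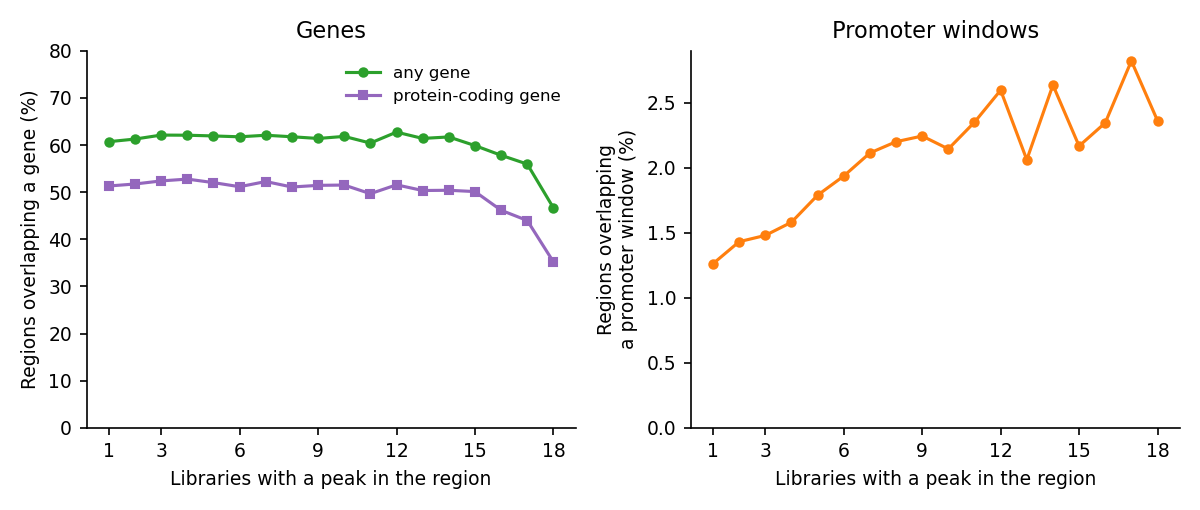
Percentage of regions that overlap any gene or a protein-coding gene (left) and a promoter window (right), against the number of libraries with a peak. Gene overlap is near 60% for most classes and drops to 46.7% at 18 libraries, while single-library regions have the lowest promoter share, 1.26%.

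Promoter overlap was lower. A promoter window here is the stretch from 250 bases before to 50 bases after a RefSeq gene start, and the table holds 31396 on the autosomes. Of the single-library regions 546 (1.26%) overlapped such a window, against 1.43% of 2-library regions and 1.91% of all shared regions. Within libraries the mean was 1.17% ± 0.412 against 2.18% ± 0.0592 (SD, n = 18 each), lower in 18 of 18 libraries. The two-sided exact sign-flip permutation p was 7.63e-06, the smallest that 18 pairs can give, in a test chosen after seeing the data. Wider regions reach a window more often, so the midpoint was also used. A window then held the midpoint of 0.252% of single-library and 0.376% of shared regions, lower in 14 of 18 libraries (exact sign-flip permutation p = 0.00259).

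The promoters that single-library peaks did reach held few CpGs, which is given as description without a test. Windows under a single-library peak numbered 580, from 553 genes, and had a median of 5 CpGs in 300 bases. Windows without any peak had 8, those with a peak in 2 to 17 libraries 6, those with a peak in all 18 libraries 7, and all windows 7. Of the single-library windows 5.17% held 15 CpGs or more, against 37.9% of windows without a peak, 7.86% at 2 to 17 libraries and 18.2% at 18 libraries. The most CpG-rich window under a single-library peak was that of 4933428G20Rik with 42 CpGs, of which the peak, in 72 h replicate 3, covered 35 bases at the downstream side. Rab10os had 39 (sham replicate 3), Ube2e1, a ubiquitin-conjugating enzyme, 27 (10 min replicate 2), and Mael and Timp3 24 each. The peak covered 8 of the 300 window bases at Rab10os, 186 at Ube2e1, 300 at Mael and 78 at Timp3. Timp3 encodes an inhibitor of matrix-degrading proteases, and its single-library peak was from sham replicate 2 (chr10:86299438-86300239, score 60.57).

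Of the 580 windows, 200 (34.5%) came from the 72 h libraries, which supplied 25.8% of all single-library regions. This difference was not tested. Regions at a promoter window made up 1.69%, 1.56% and 1.73% of the single-library regions of the 72 h libraries, and 1.23%, 1.97% and 0.743% in sham. The range was 0.634% to 1.53% over the other 12 libraries. Sham replicate 2, which has the longest list outside the 72 h group, was thus the highest of all 18.

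Of the 10 highest-scoring single-library regions at a promoter window, 7 were from 72 h libraries, which supplied 34.5% of the 580 windows. The difference was not tested. The 10 were led by the peak that spanned the windows of both Cd55b and Cd55os (118.61). Next came Shisa5 (113.81, 72 h replicate 1), which encodes a protein of the p53-linked death response. 4933428G20Rik (112.69, 72 h replicate 3) and the long noncoding RNA gene 4931408D14Rik (108.39, 72 h replicate 3) followed. The olfactory receptor genes Olfr1389 (104) and Olfr1370 (99.75) were both from 24 h replicate 3, with C130073F10Rik (100.59, 72 h replicate 1) between them. Krt7 and its neighbour Gm671 shared a peak (95.7). Ngfr, a neurotrophin receptor, followed (94.83, 10 min replicate 3), and Tbc1d5 closed the list (92.82). Some of these peaks only touched the edge of the 300-base window. They covered 9 of its bases at C130073F10Rik, 14 at Ngfr, 18 at Olfr1370 and 35 at 4933428G20Rik. The other windows were covered over 139 (Shisa5) to 300 bases (Cd55b and Cd55os).

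The highest score of any single-library region was at Asxl1, which encodes a Polycomb-associated chromatin regulator (chr2:153348912-153349339, 428 bases, score 184.43, 72 h replicate 3). Asxl1 held 2 more single-library regions, 1 in 10 min replicate 2 with score 134.14 (chr2:153357706-153358276) and 1 in 72 h replicate 1 with score 61.33. The gene had 8 regions in all, and the most widely shared one, with a peak in 17 libraries, reached a score of 187.07. The 3 single-library peaks of Asxl1 thus came from different mice and lay at different places in the gene.

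The next scores were 171.91 near Gm30932 (chr1:190599447-190599957, 72 h replicate 2) and 160.4 within Traf2, an adaptor of tumour necrosis factor receptors (chr2:25529905-25530416, 72 h replicate 1). They were followed by 159.08 within the long noncoding RNA gene Gm41881 (chr19:60139543-60139992, 24 h replicate 2) and 158.23 nearest to Ly6l (chr15:75457260-75457675, 72 h replicate 1). The rest of the 10 highest lay nearest to Apip, a methionine salvage enzyme (151.99, 24 h replicate 3), within Gm33228 (150.67, 72 h replicate 2), 6637 bases from Cd36, the fatty acid transporter of heart muscle (149.32, 72 h replicate 2), nearest to Gm6392 (147.71, 10 min replicate 1) and within Gm36594 (147.49, 6 h replicate 2). Of these 10, 6 came from 72 h libraries, which held 25.8% of all single-library peaks and 35.5% of those scoring 100 or more, and 5 lay in a gene, and their widths ran from 416 to 661 bases.

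Each library had at least 1 strong single-library peak. The highest score per library ran from 118.76 (1 h replicate 1, near Gm41264) to 184.43, and 8 of these 18 peaks lay in a protein-coding gene. Besides Asxl1 and Traf2 they included Gm4340 (131.03, sham replicate 2), Tulp4 (123.85, sham replicate 3), Pcsk5, a proprotein convertase (133.88, 1 h replicate 2), Dlc1 (135.77, 6 h replicate 1), and Fank1 (128.21, 6 h replicate 3). Those of sham replicate 1 (127.76, in Gm11430), 10 min replicate 3 (138.52, nearest to Gm9923), 1 h replicate 3 (138.88, nearest to Ppm1a, a protein phosphatase) and 24 h replicate 1 (145.36, 259 bases from E130102H24Rik) lay elsewhere.

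The widest single-library regions were weak. The widest was 5900 bases with a score of 55.4 (chr3:6297790-6303689, 72 h replicate 3, nearest to Gm41989). Regions of 5002 bases at Nol6, a nucleolar protein gene (54.5, sham replicate 2), and 3914 bases at Fhad1 (53.01, sham replicate 2) followed. Gm39143 (3843 bases, 56.38, 24 h replicate 2) and Atrnl1 (3773 bases, 50.77, 6 h replicate 2) completed the 5 widest. That at Nol6 lay 357 bases from a region of another library and joined it when peaks up to 500 bases apart were merged.

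A single-library region lay in 8813 of 20661 autosomal protein-coding genes (42.7%), and long genes held the most. The median length was 44.7 kb for genes with such a region and 17.5 kb for all. Rbms3, an RNA-binding protein gene, held 43 in 1057 kb, 41.3% of its regions, and Tenm3, a teneurin of cell adhesion, held 42. Rora, a nuclear receptor of circadian and lipid metabolism, held 40 of its 80 regions as single-library (50%), from 16 libraries. Sdk1 (37), Cdh13 (35), Sox5 (33), Wwox (33), Auts2 (31), Camta1 (28) and Dab1 (27) followed. Per 100 kb the 10 genes had between 2.40 (Dab1) and 5.44 (Rora), against 2.21 over all protein-coding genes. The genes were chosen for their high counts, which favours a high density, and the difference was not tested. The share of their regions that were single-library ran from 26.4% (Wwox) to 50% (Rora), against 29.2% of all autosomal regions. It was below 29.2% in Wwox, Cdh13, Sox5 and Camta1 and above it in the other genes. The single-library regions came from 11 to 18 libraries per gene.

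Lists of 20 genes each gave the context of heart genes. A gene was counted with 2000 bases on each side. Over all protein-coding genes, 46.9% had a single-library region and 29.8% of the merged regions at them were single-library. The lists differ in gene length, so the share of regions is given beside the number of genes.

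Genes of calcium handling and ion channels had a single-library region in 18 of 20, and 72 of their 204 regions (35.3%) were single-library. Cacna1c, the pore subunit of the L-type calcium channel, held 18 of 56, from 12 libraries, and its highest scored 97.48 (chr6:119179698-119180155, 6 h replicate 1). Slc8a1, the sodium-calcium exchanger, reached 92.4 (1 h replicate 1). Pln, which restrains the calcium pump of the sarcoplasmic reticulum, had 1 region, and it was single-library (chr10:53343326-53344288, score 89.99, 72 h replicate 3).

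Cardiac transcription factors had the highest share, 41 of 104 regions (39.4%), at 12 of 20 genes. All 4 regions of Gata4, a master regulator of heart development, were single-library, and they came from the 3 libraries of 72 h. By the choice of regions, none of the 4 was shared between the 72 h mice. The 72 h libraries supplied 25.8% of all single-library regions, and a group difference at Gata4 was not tested. The highest of the 4 scored 82.87 (chr14:63255062-63255581, 72 h replicate 2). Zfpm2, a cofactor of GATA4, reached 78.47 (10 min replicate 2), and Prdm16 held 19 of 41, the highest at 77.08 (sham replicate 2). Prdm16 thus supplied 19 of the 41 regions of the list.

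Contractile genes had a single-library region in 12 of 20, with 40 of 126 regions (31.7%). Ttn, the giant spring protein of the sarcomere, held 16 of 39 from 11 libraries, the highest at 81.54 (chr2:76721306-76721943, 72 h replicate 1). Nebl, a Z-disc protein, reached 83.74 (24 h replicate 3), and Actn2, the alpha-actinin that anchors thin filaments, had 1 at 74.98 (24 h replicate 3).

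Inflammatory genes had the lowest share, 6 of 34 regions (17.6%), at 4 of 20 genes. Nfkb1, a subunit of NF-kappaB, reached 68.05 (10 min replicate 1). The only region at Tnf, the cytokine tumour necrosis factor, was single-library, in the flank of the gene, with score 54.87 (24 h replicate 2). The same held within Nfkbia, the inhibitor of NF-kappaB (52.52, 72 h replicate 3). Leukocyte genes had 12 of 41 (29.3%) at 9 of 20 genes, led by the macrophage mannose receptor gene Mrc1 (97.48, 6 h replicate 1), the integrin gene Itgax (83.63, 1 h replicate 1) and Csf1r, the receptor for macrophage growth factor (69.93, 24 h replicate 2).

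Endothelial genes had 32 of 126 regions single-library (25.4%) at 12 of 20 genes, led by the sialomucin gene Emcn (94.85, 24 h replicate 3), the VEGF receptor gene Flt1 (87.78, 10 min replicate 3) and the flank of Nos3, the endothelial nitric oxide synthase (85.16, 24 h replicate 2). Fibroblast and matrix genes had 24 of 89 (27.0%) at 12 of 20 genes. The collagen gene Col5a1 reached 77.18 (10 min replicate 1), and the TGF-beta signal transducer Smad3 and receptor Tgfbr2 reached 68.22 (10 min replicate 2) and 67.71 (6 h replicate 3). Genes of the DNA methylation machinery had 27 of 96 (28.1%) at 14 of 20 genes. The methyl-CpG-binding protein gene Zbtb38 had the highest score, in its flank (69.14, 72 h replicate 2). Mbd5 (66.45, 72 h replicate 2) and Tet1, an enzyme that oxidises methylcytosine (64.89, 72 h replicate 1), were next. These shares are descriptions of 20 genes each and were not tested. Of the 24 genes named from the lists, the highest-scoring region was from a 72 h library for 7 (29.2%).

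Single-library regions were spread over the chromosomes. Their share of the autosomal regions ran from 28.2% on chromosome 3 to 30.6% on chromosome 11. On the sex chromosomes, which were left out above, it was 30.8% on X (698 of 2267) and 28.5% on Y (518 of 1818).

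Regions in exactly 2 libraries are the class next to the single-library one. Of 20245 such regions, 2749 (13.6%) were shared by mice of the same group. Of the 153 possible pairs of libraries, 18 (11.8%) lie within a group. The difference was not tested, and list lengths differ between the groups. The 72 h group held 1070 of the 2749, sham 453, 24 h 419, 1 h 282, 6 h 264 and 10 min 261. The 72 h and sham groups, whose lists are the longest on average, were also first in single-library regions.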

How the data were processed

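MeDIP-seq peak lists from 18 hearts were used, 1 per mouse, with 34255 to 60653 peaks each (33354 to 59014 on autosomes). Peaks were called on each library separately; Bowtie2, MACS2 and mm10 appear in the submitters' processing notes without version or role. The deposited score of each peak is the authors' own, on a scale not stated. Positions are mm10 (GRCm38), printed counted from 1, and gene positions, promoters and miRNAs are RefSeq on GRCm38.p6. No read counts were used, so depth is unknown and no counting interval is given.

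Peaks were merged and annotated with Python 3.11.15, numpy 2.4.6, pandas 2.3.3 and scipy 1.17.1, on code tested on simulated lists. Groups were compared by the share of variance between them with 100000 relabelings (Benjamini-Hochberg over 5 measures), each time against sham by an exact permutation test (over 5 times), and libraries with themselves by exact sign flips. Named regions were the 10 highest-scoring, the highest of each library, the 5 widest, the 10 highest at promoters, the 10 genes with most regions and the 3 highest-scoring genes of each list. All 160 list symbols matched. Members and lists were chosen with earlier results of these data known. Alternatives were a score threshold, equal list lengths, a 500-base gap, all chromosomes and left-out libraries. CpG content of the regions themselves was not analysed here.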

Additional observations from a re-analysis of the deposited data

Results flagged for a closer look

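For several measures the 3 libraries of 72 h were all higher than the mean of sham, while the 3 libraries of an earlier time were all lower. Whether those times differ in their change from sham was not tested, and with 5 measures at 5 times such patterns can arise often. The mean number of single-library regions at 72 h exceeded the 10 min mean by 1724, the 1 h mean by 1969, the 6 h mean by 1841 and the 24 h mean by 1420. The share of peaks that were single-library was 2.23 points higher at 72 h than at 10 min, 2.75 higher than at 1 h and 2.37 higher than at 6 h. The median score of single-library peaks exceeded the 1 h mean by 1.32 and the 6 h mean by 1.37. The 72 h lists held 47216 to 59014 autosomal peaks, and the longest lists of the other times held 50960 (10 min), 44290 (1 h), 49086 (6 h) and 49647 (24 h). With lists of equal length the mean shares were 6.02% at 72 h and 5.57% to 6.20% at these times.

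For 2 other measures the 6 h libraries were on 1 side of the sham mean and another time on the opposite side. The median width of single-library peaks was 69.5 bases higher at 6 h than at 1 h and 114.5 bases higher than at 24 h. The share of single-library regions that overlapped a gene was 6.55 points higher at 72 h than at 6 h.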

How the results depend on the processing

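The number of single-library regions was 43229, 28081 when peaks below the median score of the 18 lists were dropped, and 39659 when peaks up to 500 bases apart were merged. The 28081 are not a part of the 43229. Remaining peaks were merged anew, so regions whose other peaks fell below the median became single-library. Only 15.3% of the original single-library peaks reached that median. Without the peaks below the median, group accounted for 0.593 of the variance in the number of regions, 0.659 in their share and 0.574 in their median score (adjusted permutation p = 0.0556 each), no longer past the threshold. With lists of equal length the values were 0.149, 0.149 and 0.502, also not past it, and the differences from sham turned to 0.850 points at 10 min, 0.215 at 1 h, 0.782 at 6 h and 0.412 at 24 h; the cause was not tested. Leaving out 1 library at a time gave 0.555 to 0.727 for the number, 0.640 to 0.744 for the share and 0.523 to 0.765 for the score, with 5 of 18 libraries ending each call. Differences from sham ran from -1.34 to -0.397 points at 10 min, -1.84 to -0.943 at 1 h, -1.49 to -0.499 at 6 h, -0.870 to -0.0970 at 24 h and 1.16 to 1.96 at 72 h. The gene overlap difference ran from 1.33 to 1.93 points and passed the threshold each time. The correlation of deviations showed no pairing by replicate number: over 45 pairs of same-numbered libraries the mean was 0.00263, and 0 were above 0.1. The median score did vary with the number: replicate 1 had the highest value in each MI group, though not in sham. Its share of variance between groups was 0.657 without a block. With the number as a replicate block the shares of variance were 0.686, 0.705 and 0.846 (adjusted permutation p = 0.0430, 0.0430 and 0.0401), 0.433 for width and 0.516 for gene overlap, and no call changed. Of 36 named regions, 31 still had a peak in 1 library after the score threshold, and 5 had none. Dropping peaks cannot add a library, and the 5 lost were the 5 widest. The others were named for high scores, so this count follows from the naming. With the 500-base gap 35 of the 36 still had a peak in 1 library. With 3 mice per group and no read depth, a peak missing from 17 lists may be unmethylated there or below the caller's threshold.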
